A study of Homo sapiens with 2 samples.

Results

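The ATP-binding cassette (ABC) transporter genes were examined in SBC-3 cells, an established small cell lung cancer (SCLC) line, after transfection with #1 siHOTAIR or with siGFP. A gene was a member if the RefSeq accession of its probe led to a symbol made of ABC, a subfamily letter from A to G and a number. This gave 45 genes, measured by 64 probes and 145 spots, of the 19061 genes and 24824 probes that could be named on the array. The siRNA named #1 siHOTAIR is directed against HOTAIR, a long noncoding RNA transcribed from the HOXC cluster that binds chromatin-modifying complexes. The siRNA named siGFP is directed against green fluorescent protein and was the control. Both groups were the same line, and the time from transfection to RNA extraction for the arrays was not given in the sources used here. Each condition was 1 RNA sample on 1 one-colour array, so no test between the conditions was possible and no P-value was computed. Culture and array cannot be told apart from the siRNA.

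ABC proteins bind and hydrolyse ATP, and most of them use that energy to move a substrate across a membrane. Subfamily A and most of subfamily G handle lipids and sterols, subfamily B mixes drug, bile salt and mitochondrial transporters, subfamily C holds the multidrug resistance proteins together with the sulfonylurea receptors, and subfamily D imports fatty acyl groups into peroxisomes or cobalamin from lysosomes. Members of subfamilies E and F have no membrane domain and act in translation. In SCLC, a tumour that often relapses after an initial response to chemotherapy, the drug efflux pumps ABCB1, ABCC1 and ABCG2 are the members most often studied.

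The antisense strands of both siRNAs are shown because they define the only designed difference between the arrays, with the seed (bases 2 to 8 from the 5′ end) in capitals.
#1 siHOTAIR: uCUCUCUGuacucccguucuu
siGFP: gACGUUGUggcuguuguagtt

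The promoters of ABCD3 and ABCA12 are shown because these members differed at least 2-fold, in opposite directions, with signals well above background in both cell samples. The sequences are from RefSeq (GRCh38.p14), run 5′ to 3′ on the strand of the gene from 250 bases before to 50 bases after its start, and carry in capitals each match to the GC box GGGCGG or its reverse complement CCGCCC. ABCD3 lies at chr1:94418139-94418438 on the plus strand, and ABCA12 at chr2:215138577-215138876 on the minus strand.
ABCD3: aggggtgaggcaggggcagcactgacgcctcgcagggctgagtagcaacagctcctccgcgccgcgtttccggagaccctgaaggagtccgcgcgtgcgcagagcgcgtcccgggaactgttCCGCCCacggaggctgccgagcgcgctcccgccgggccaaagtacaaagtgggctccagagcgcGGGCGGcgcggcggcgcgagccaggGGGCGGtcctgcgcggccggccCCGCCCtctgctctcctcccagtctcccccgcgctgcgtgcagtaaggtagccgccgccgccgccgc
ABCA12: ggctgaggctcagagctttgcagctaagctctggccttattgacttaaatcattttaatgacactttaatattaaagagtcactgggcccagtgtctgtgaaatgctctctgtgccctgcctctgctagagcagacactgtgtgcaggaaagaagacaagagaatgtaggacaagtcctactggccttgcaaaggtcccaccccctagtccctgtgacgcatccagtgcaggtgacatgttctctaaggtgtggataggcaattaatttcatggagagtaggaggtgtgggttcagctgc

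The ABCD3 window held 4 GC boxes and was 75% G or C, and the ABCA12 window held none and was 48.7% G or C. Of the 45 members, 34 had an entry in the promoter table, and their median G or C content was 61.2%, against 58.7% over all 35116 promoters of the same length. On either strand the GC box was found in 17 of the 34 (50%) and in 45.0% of all promoters. The CCAAT box (CCAAT) was found in 5 of 34 (14.7%) and in 34.6% of all, and the E-box (CACGTG) in 4 of 34 (11.8%) and in 7.26% of all. The TATA box (TATAAA) was found in 5 of 34 (14.7%) and in 11.5% of all. The left half-site of RE1 (TTCAGCACC), the element bound by the neuronal repressor REST, was found in 0 of 34 and in 0.376% of all. These matches describe letters in a window and no binding was measured.

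In what follows a signal is the background-corrected intensity deposited for a spot, and a log2 ratio is #1 siHOTAIR over siGFP after each array was scaled to its own 75th percentile. A probe was compared if the scanner software marked 50% or more of its spots as well above background in either sample, and it is called detected in that sample. The measurement SD beside a ratio comes from probes printed 10 times and covers error within an array only, not differences between cultures. Of all non-control spots, 55.5% were well above background in #1 siHOTAIR-transfected cells and 58.3% in the control. HOTAIR itself gave 108 after #1 siHOTAIR and 244 after siGFP, a log2 ratio of -1.22 (measurement SD 0.22), that is 57.2% lower, on a single spot. Among defining neuroendocrine markers of SCLC, INSM1 and SYP were detected in neither sample, whereas DLL3 and NEUROD1 were detected in both. Spots that differed at least 4-fold were unevenly placed: rows 1 to 144 of the 384 rows held 37.5% of the spots, 78.1% of the 343 higher spots and 58.3% of the 357 lower spots. The part of this pattern in the results below was not tested beyond leaving those rows out.

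The ABC family as a whole stood where all probes stood, and few of its members differed by 2-fold. Of the 45 genes, 24 had a probe detected on both arrays, 6 on 1 array only and 15 on neither. The 39 probes compared had a median log2 ratio of 0.01, the same as the median of 0.01 over all 24117 probes compared, with 20 above 0 and 19 below. Higher by 2-fold or more after #1 siHOTAIR were 2 of 39 (5.13%), against 3.3% of all probes compared. Lower by 2-fold or more were 3 of 39 (7.69%), against 4.1%. The balance of directions depends on the scaling: 795 of all probes compared were higher and 989 lower, and after scaling to the spike-in RNA 1025 were higher and 781 lower, with 3 higher and 3 lower among the ABC probes. Over the 33 probes detected on both arrays, 1 was higher and 1 lower, against 1.5% and 1.54% of all 21428 such probes, and the median was 0.08 against 0.03. Counted by gene, with the probe of the highest mean signal for each, 2 of 30 were higher (6.67%, against 2.74% of named genes) and 3 of 30 lower (10%, against 3.41%). The family's shares thus rest on 1 to 3 probes in each direction, and nothing is read from their distance to the background. Large ratios were mainly found at low signals: among probes dimmer than the 75th percentile by more than 3 log2 units, 30.0% of 10 ABC probes and 22.1% of 5500 probes in all were past 2-fold, and among those from 1 unit below the percentile upwards, 5.56% of 18 and 1.91% of 11787.

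**Figure D1:**
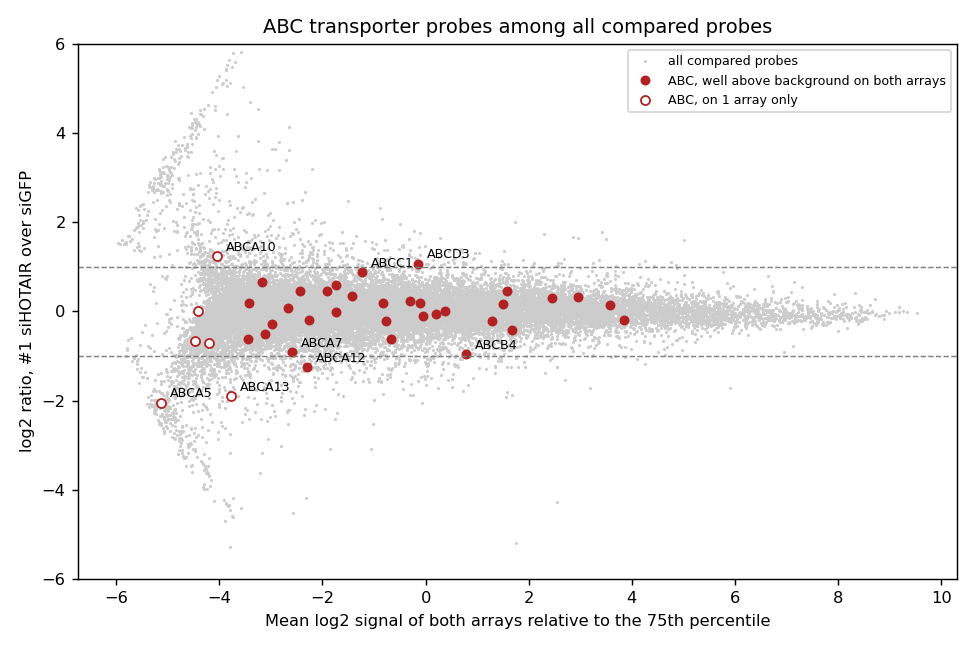
Each point is a probe, with the mean log2 signal of both arrays relative to the 75th percentile on the x axis and the log2 ratio of #1 siHOTAIR over siGFP on the y axis. Grey points are all 24117 probes compared, filled red points the 33 ABC probes detected on both arrays, open red points the 6 detected on 1 array only, and dashed lines mark 2-fold. ABCD3 and ABCA12 are the filled points outside the dashed lines, and the open points outside them (ABCA5, ABCA13 and ABCA10) lie at the dim end where the grey cloud also widens.

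The subfamilies differed in their medians. Subfamily D had a median log2 ratio of 0.59 over 5 probes, subfamily F 0.24 over 2, subfamily E 0.18 over 2 and subfamily B 0.16 over 8. Subfamily G stood at 0.0 over 2 probes, subfamily C at -0.09 over 9 and subfamily A at -0.41 over 11. After scaling to the spike-in RNA, subfamily C stood at 0.04 and subfamily G at 0.14. In subfamily A 3 probes were above 0 and 8 below, but 4 of its 11 probes were compared only through the array on which they were high, and these include 3 of the 4 past 2-fold. Over the 7 subfamily A probes detected on both arrays, the median was -0.29, with 2 above 0, 5 below and 1 past 2-fold. With 1 array per condition and so few probes in each, no difference between subfamilies was tested.

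**Figure D2:**
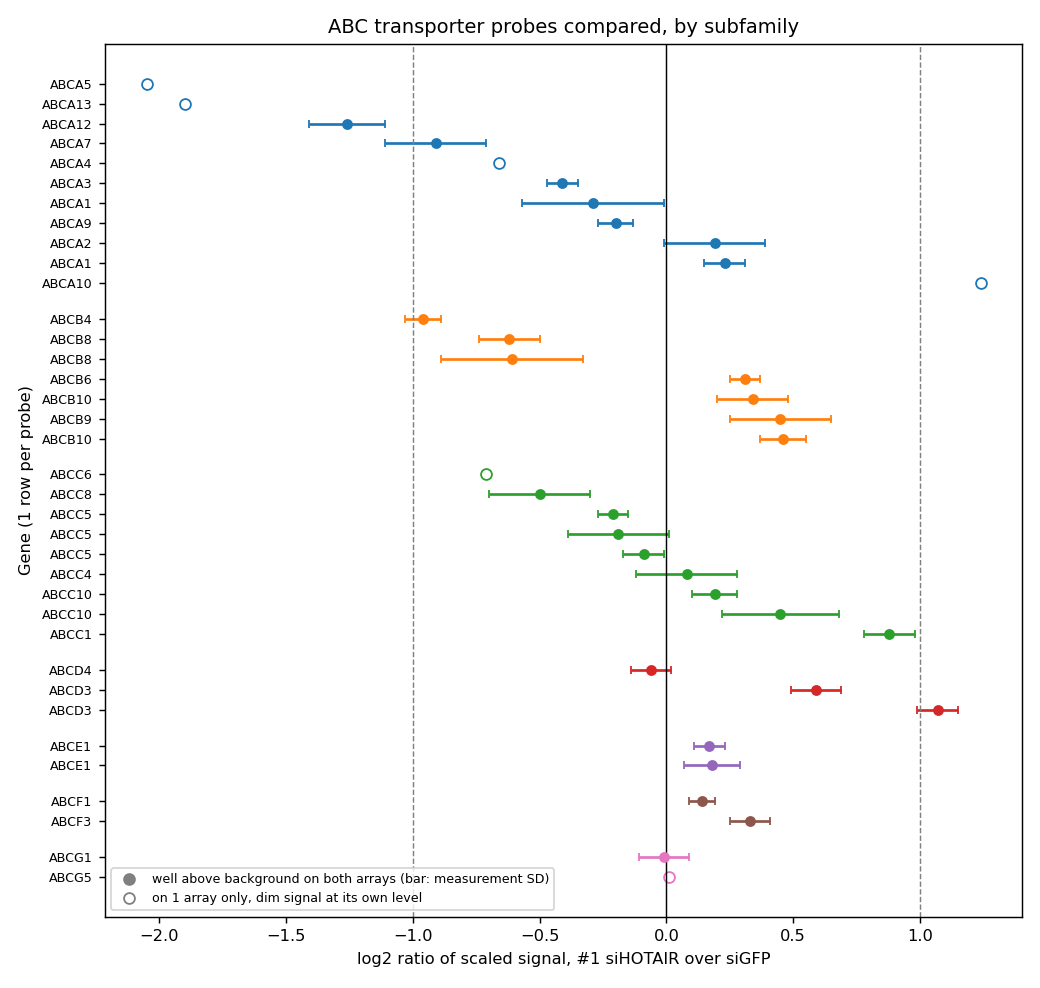
Each row is 1 of 36 ABC probes compared, grouped and coloured by subfamily, with the log2 ratio of #1 siHOTAIR over siGFP on the x axis. Filled points with bars (measurement SD) were detected in both samples, open points on 1 array only with the dim signal at its own level, and dashed lines mark 2-fold. Most subfamily A probes lie left of 0, and the ABCD3 probe at 1.07 is the only filled point past the right dashed line.

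The list of drug efflux pumps held 16 genes on 27 probes. Besides exporters of anticancer drugs or their conjugates, it holds lipid transporters such as ABCA2, ABCA3 and ABCB4. Of the 16 genes, 7 were detected in both samples, 1 in the siGFP control only and 8 in neither. None of the 11 probes compared was past 2-fold (background 3.3% higher and 4.1% lower). The median was -0.09, and the ratios ran from -0.96 (ABCB4) to 0.88 (ABCC1). Scaling to the spike-in RNA moved the median to 0.04 and took ABCC1 past 2-fold.

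ABCC1 (MRP1), which exports glutathione conjugates and several anticancer drugs, gave 384 and 368 on its 2 spots in #1 siHOTAIR-transfected cells and 200 and 197 in siGFP-transfected cells. The spots of the arrays did not overlap, and the log2 ratio was 0.88 (measurement SD 0.1), or 1.84-fold higher. ABCB4 (MDR3), a phosphatidylcholine floppase of the bile canaliculus and a close relative of ABCB1, went the other way. Its spots gave 765 and 844 in #1 siHOTAIR-transfected cells and 1449 and 1575 in the control, with a log2 ratio of -0.96 (measurement SD 0.07), or 1.94-fold lower. Both spots gave nearly the same ratio in each gene, 0.86 and 0.90 for ABCC1 and -0.97 and -0.95 for ABCB4, and both genes fell short of 2-fold. After scaling to the spike-in RNA, ABCC1 was at 1.01, past 2-fold, and ABCB4 at -0.82.

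The other detected genes of the pump list differed less. ABCA3, which loads surfactant lipids into lamellar bodies, gave 1935 and 1700 against 2349 and 2319, a log2 ratio of -0.41 (measurement SD 0.06). ABCC5 (MRP5), an exporter of cyclic nucleotides and nucleotide analogues, was read by 3 probes with log2 ratios of -0.21, -0.19 and -0.09. ABCC10 (MRP7), which carries taxanes, was read by 2 probes at 0.19 and 0.45. ABCC4 (MRP4), another exporter of cyclic nucleotides, gave 93.4 and 120 against 102 and 91.5, and its spots overlapped between the arrays and had opposite signs. ABCA2, a lysosomal lipid transporter, gave 63.4 and 65.6 against 49.8 and 60.4, a log2 ratio of 0.19 (measurement SD 0.2), and a further probe for it was not above background. ABCC6, whose loss causes pseudoxanthoma elasticum and which has near-identical pseudogene copies that a probe may also read, had 1 of its 4 probes detected, in the siGFP control only, with 27.6 against 43.9 or at least 1.22-fold lower.

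ABCB1 and ABCG2 were detected in neither sample. ABCB1 (P-glycoprotein) was read by a probe printed 10 times and by another printed once, both below the detection mark in both samples. Without outlier spots the first gave 8.22 to 18.0 in #1 siHOTAIR-transfected cells and 16.5 to 30.7 in siGFP-transfected cells, and the lowest signals well above background were 37.3 and 28.6. An outlier spot of 70.9 after #1 siHOTAIR and another of 47.3 after siGFP were the only ABCB1 spots marked as well above background, and each was left out on its array. ABCG2 (BCRP), which exports topotecan and irinotecan metabolites, gave 9.12 and 36.2 on its 2 spots in #1 siHOTAIR-transfected cells and 26.4 and 9.85 in siGFP-transfected cells. The order of the arrays turned from one ABCG2 spot to the other, and no fold is given for either gene. ABCB5, ABCB11, ABCC2, ABCC3, ABCC11 and ABCC12 were likewise detected in neither sample. These signals show only that the transcripts were not detectable with these probes.

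**Figure D3:**
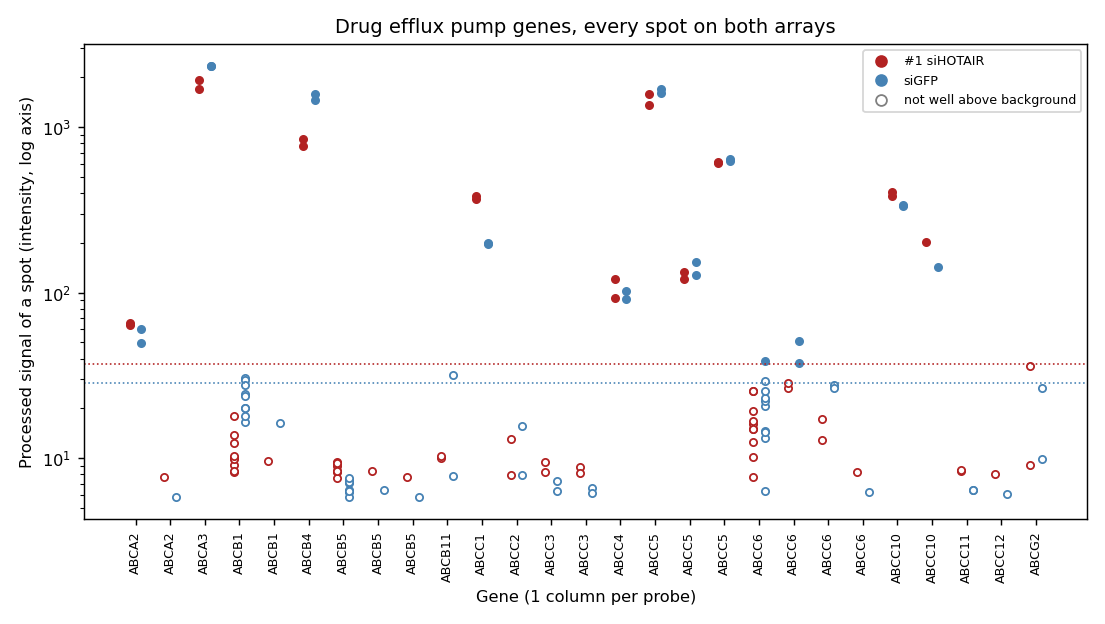
Each column is a probe of a drug efflux pump gene, with the processed signal of every spot that was not an outlier on a log axis, red for #1 siHOTAIR and blue for siGFP. Filled points are well above background, open points are not, and dotted lines mark the lowest signal well above background on each array (37.3 and 28.6). ABCC1 and ABCB4 show separated red and blue points in opposite order, and the points of ABCB1 and ABCG2 are open.

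The lipid and sterol exporters outside the pumps lay mostly in subfamily A. Over the 18 genes listed, which share ABCA2, ABCA3, ABCB4 and ABCB11 with the pumps, 14 probes were compared, with a median log2 ratio of -0.35, 4 above 0 and 10 below. Past 2-fold were 1 probe higher (7.14%, against 3.3% of all probes compared) and 3 lower (21.4%, against 4.1%), and all of these but 1 were compared only through the array on which they were high. Over the 9 probes detected on both arrays, 0 were higher and 1 was lower (1.5% and 1.54% of all such probes), and the median was -0.29.

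ABCA12, which delivers glucosylceramide to lamellar granules of keratinocytes, gave 94.8 and 76.3 in #1 siHOTAIR-transfected cells and 203 and 191 in siGFP-transfected cells. The spots did not overlap, and the log2 ratio was -1.26 (measurement SD 0.15), or 2.39-fold lower. Its spots lay in rows 101 and 201, and the spot outside the rows rich in strongly different spots gave -1.37 against -1.14 for the other. The promoter printed above for this gene held no GC box. ABCA7, a phospholipid transporter linked to Alzheimer's disease, gave 67.4 and 92.0 against 142 and 144, a log2 ratio of -0.91 (measurement SD 0.2). The ABCA7 spots of the 2 arrays did not overlap, but they lay in rows 48 and 103, both within the rows rich in strongly different spots.

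The remaining subfamily A genes past 2-fold were each read by 1 spot and on 1 array only. ABCA13, among the largest proteins of the family, gave 24.7 in #1 siHOTAIR-transfected cells, which was not well above background, and 89.5 in siGFP-transfected cells, or at least 2.48-fold lower. ABCA5, a lysosomal member, gave 9.06 against 36.4, and its bound was at least 1.01-fold lower, so that the size of the difference is not known. ABCA10 gave 60.5 against 24.8, or at least 2.05-fold higher, and its spot lay in row 83, within the rows rich in strongly different spots. A single spot cannot be checked against another on the same array.

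ABCA5, ABCA6, ABCA8, ABCA9 and ABCA10 form a gene cluster on chromosome 17, where the promoter windows of ABCA9, ABCA6, ABCA10 and ABCA5 begin at 69060878, 69141846, 69244799 and 69327084 (GRCh38.p14). Whether these neighbours move together cannot be read, since ABCA9 alone was detected on both arrays. It gave 8776 against 9780 (log2 ratio -0.2, measurement SD 0.07), also on a single spot. On 1 spot each, ABCA10 was detected only in #1 siHOTAIR-transfected cells and ABCA5 only in siGFP-transfected cells. ABCA6 and ABCA8 were detected in neither. ABCA1, which loads cholesterol onto apolipoprotein A-I, had 2 probes with log2 ratios of 0.23 and -0.29, and the second was read by 1 spot with a measurement SD of 0.28. ABCA4, the retinal flippase, gave 23.5 against 35.9, detected in the siGFP control only, and its bound allows no fold.

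The sterol transporters of subfamily G were close to equal or undetected. ABCG1, which passes cholesterol to high-density lipoprotein, gave 195 against 191, a log2 ratio of -0.01 (measurement SD 0.1). ABCG5, the partner of ABCG8 in sterol excretion, was read by 10 spots with a mean signal of 30.5 against 29.3 and was detected in the siGFP control only. ABCG8 and ABCG4 were detected in neither sample. The promoter windows of ABCG5 (chr2:43838790-43839089, minus strand) and ABCG8 (chr2:43838721-43839020, plus strand) overlap head to head.

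The transporters of mitochondria, peroxisomes and lysosomes stood on the other side of 0. Of the 9 genes listed, 8 were detected in both samples, and their 12 probes had a median log2 ratio of 0.32, with 8 above 0 and 4 below. Past 2-fold was 1 probe, higher (8.33%), and 0 were lower. All 12 probes were detected on both arrays, and of all such probes on the array 1.5% were higher and 1.54% lower. Of all probes compared, 3.3% were higher and 4.1% lower. The share of this list rests on 1 probe.

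ABCD3 (PMP70), which imports branched and long-chain acyl-CoA into peroxisomes, gave 850 and 856 on the 2 spots of its first probe in #1 siHOTAIR-transfected cells and 392 and 394 in the control. The log2 ratio was 1.07 on both spots (measurement SD of their mean 0.08), or 2.1-fold higher. These spots lay in rows 74 and 320, within and outside the rows rich in strongly different spots. A second probe for ABCD3 gave 237 and 240 against 157 and 149, a log2 ratio of 0.59 (measurement SD 0.1), or 1.51-fold higher. Both probes had the same direction with no overlap between the arrays, and only the first was past 2-fold, with a difference of 0.48 between them. ABCD4, which releases cobalamin from lysosomes, was at -0.06, and ABCD2 was detected in neither sample.

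Among the mitochondrial and lysosomal members of subfamily B, ABCB10, which supports haem synthesis, was at 0.46 and 0.34 on its 2 probes, each a single spot. ABCB6, a porphyrin transporter, gave 3946 against 3090 (log2 ratio 0.31, measurement SD 0.06), and ABCB9, a lysosomal peptide transporter, was at 0.45 (measurement SD 0.2). ABCB8, also of the inner mitochondrial membrane, was lower on both of its probes, at -0.61 (48.3 against 71.4) and -0.62 (329 against 490), each a single spot. The organelle members of subfamily B therefore did not share a direction.

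The members without a membrane domain differed little, and of the channel regulators only ABCC8 was compared. ABCE1, which splits ribosomes after termination, was at 0.17 and 0.18 on its 2 probes. ABCF1, an initiation factor partner, gave 8177 against 7187 (log2 ratio 0.14, measurement SD 0.05). ABCF3 gave 5691 against 4384 on a single spot (0.33, measurement SD 0.08). All 4 of these probes were above 0 and none was past 2-fold. ABCC8 (SUR1), the sulfonylurea receptor of beta-cell and neuronal potassium channels, was at -0.5 (63.2 against 86.8, measurement SD 0.2), and its 2 spots differed, the lower being -0.93 and the higher -0.08. ABCC9 (SUR2) and ABCC13, a transcribed pseudogene that the symbol rule admits, were detected in neither sample.

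The repeat spots allow a check within the arrays. Of the 25 ABC probes compared that were printed in 2 positions, 22 had the same sign on both spots. Among the exceptions were ABCC4 and a probe of ABCC5, with mean log2 ratios of 0.08 and -0.19.

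**Figure D4:**
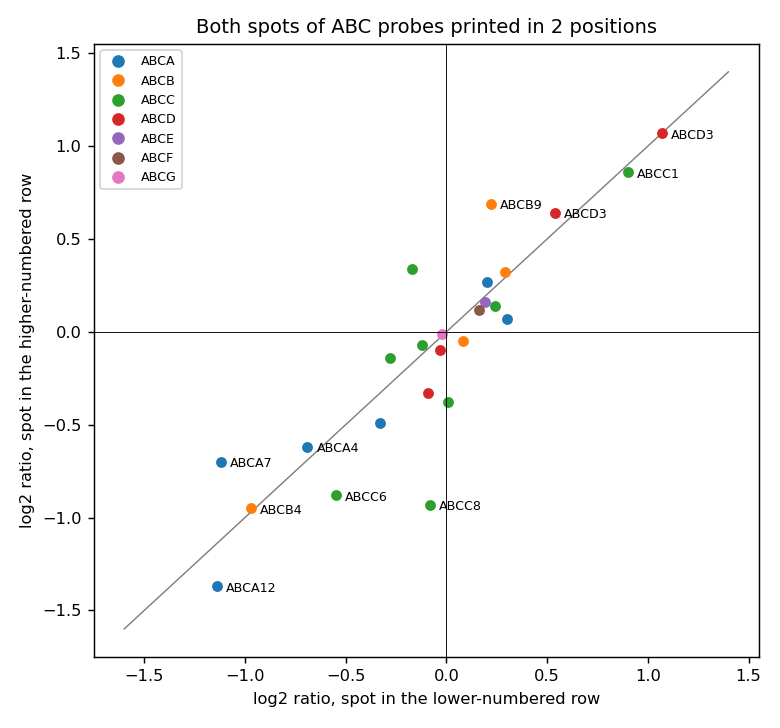
Each point is an ABC probe printed in 2 positions and compared, with the log2 ratio of the spot in the lower-numbered row on the x axis and of the spot in the higher-numbered row on the y axis, coloured by subfamily. The grey line marks equal ratios. ABCD3, ABCC1, ABCB4 and ABCA12 lie near the line at its ends, and ABCC8 lies away from it with -0.08 and -0.93.

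Genes that work beside the transporters were read from lists. Of 16 regulators of pump genes, 11 were compared, none was past 2-fold, and 10 were below 0, with a median log2 ratio of -0.2 (named genes 0.02), but after scaling to the spike-in RNA 7 were below 0, with a median of -0.07. The liver X receptors NR1H3 (790 against 992, -0.37) and NR1H2 (243 against 288, -0.29), which induce ABCA1 and ABCG1, and SREBF2 (1040 against 1263, -0.33), a sterol sensor, were among them. KEAP1, the inhibitor of NRF2, was the member above 0 (3673 against 2716, 0.39), and NFE2L2, which encodes NRF2, was not well above background. In glutathione synthesis and conjugation, which feeds ABCC1 and its relatives, none of 14 genes was past 2-fold and the median was 0.03, with GSTA4 lowest at -0.92.

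In the other lists a few single genes stood out. None of 20 iron-sulfur cluster and haem genes was past 2-fold (median 0.05), and FDX1 (262 against 152, 0.74) and GFER (588 against 351, 0.70) were highest by the probe used for each gene. Of 12 peroxisomal import and beta-oxidation genes 1 was past 2-fold, ACSL3, which activates long-chain fatty acids, with 616 against 257 (1.22, or 2.33-fold higher). The median of that list was 0.0. Of 12 ribosome recycling and initiation partners 1 was past 2-fold, EIF5, with 811 against 325 (1.27, or 2.41-fold higher), and the median was 0.13. Of 9 cholesterol efflux partners 1 was past 2-fold, LCAT, the enzyme that esterifies cholesterol on lipoproteins, with 81.5 against 176 (-1.16, or 2.23-fold lower), and the median was 0.03. The potassium channel pores that pair with ABCC8 and ABCC9, KCNJ11 and KCNJ8, were not well above background. Over all named genes compared, 2.74% were past 2-fold higher and 3.41% lower.

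**Figure D5:**
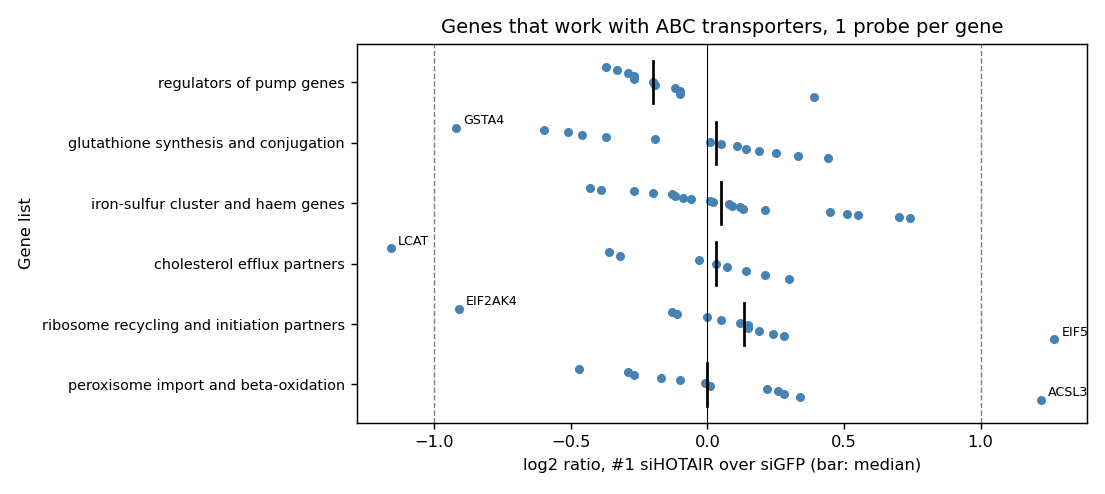
Each point is a gene of a list, by its compared probe of the highest mean signal, with the log2 ratio of #1 siHOTAIR over siGFP on the x axis and the list on the y axis. Black bars are medians and dashed lines mark 2-fold. The regulators of pump genes lie left of 0 except KEAP1 at this scaling (7 of 11 do so after scaling to the spike-in RNA), and LCAT, EIF5 and ACSL3 are the points outside the dashed lines.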

How the data were processed

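Agilent one-colour arrays of #1 siHOTAIR- and siGFP-transfected SBC-3 cells were used, 1 per condition, both on the same slide and scan. The authors extracted the spots with Agilent Feature Extraction 10.10.1.1, per the labels, and deposited intensity values, of which the processed signal is background-subtracted and corrected for trends, with no normalization between arrays. The deposited value table of the series, also intensity, equals the background-subtracted signal (largest difference 0.0) and served as an alternative.

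Log2 processed signals were set against the 75th percentile of the non-control spots (650.3 and 629.9), outlier spots were dropped from their own array (6 and 2 ABC spots), and spots of a probe were averaged. Where 1 array alone was well above background, the dim side was raised to 37.3 or 28.6 if lower, and the fold is called "at least". Spots not well above background can read higher than these values (44.8 for ABCG5 after #1 siHOTAIR), so this bound is not strict. No spot was saturated. Symbols came from RefSeq accessions matched to GRCh38.p14 names. Of 46 member symbols in that table, ABCF2 had no probe of its own. The members, lists and thresholds were chosen with earlier results of these data known. Named were all pumps, members past 2-fold, members whose probes disagree and the extremes of each subfamily. The values of some genes that enter the counts and medians are not reported here. Genes of the partner lists below 2-fold were named after their values were seen. Python 3.11.15, pandas 2.3.3, R 4.3.3 and limma 3.58.1 were used. The number of arrays limits the precision.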

Additional observations from a re-analysis of the deposited data

How the results depend on the processing

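With 1 array per condition, no replicate could be left out. No paired analysis was possible because each group has 1 array. Over 15 alternatives, the 16 probes of pumps and of members past 2-fold gave 171 values, of which 146 stayed within 1 measurement SD, 25 moved and 0 of the called ones changed sign. Part of the 146 was fixed in advance, so this count does not measure stability. Dropping the filter on dim probes, or requiring every spot to be well above background, only selects probes and leaves each ratio as it was. Setting dim signals at their bound leaves probes detected on both arrays unchanged. ABCD3 ranged from 0.91 to 1.21 and was past 2-fold in 9 of 11 settings, ABCA12 from -1.37 to -0.71 (9 of 11), ABCA13 from -1.91 to -0.69 (8 of 10), ABCA5 from -2.21 to -0.01 (7 of 10) and ABCA10 from 0.31 to 1.38 (7 of 9). In the settings just named, ABCD3 and ABCA12 kept their main values of 1.07 and -1.26. Both fell short of 2-fold with normexp (0.93 and -0.76) and with the median signal without background correction (0.91 and -0.71). Normexp with an offset of 50 left 0 ABC probes past 2-fold in either direction, against 227 higher and 187 lower (414) of all probes, and the median of subfamily D became 0.3. The median signal without background correction also left 0, against 173 and 154 (327), with subfamily A at -0.17 and subfamily D at 0.26. Requiring every spot to be well above background on both arrays left 1 higher and 1 lower ABC probe (2), against 313 and 317 (630). Without a filter on dim probes 5 ABC probes were lower, against 1933 higher and 1866 lower of all probes (3799), and the medians became 0.13 for the family, 0.26 for subfamily C, 0.42 for subfamily D and 0.13 for the pumps. A threshold of 1.5-fold gave 5 higher and 9 lower ABC probes (14), against 2050 and 2348 (4398), and one of 3-fold gave 0 higher and 2 in all, against 377 and 411 (788). Spike-in scaling moved the median of all probes compared by 0.14, and with it the medians to 0.15 for the family, 0.3 for subfamily B, 0.73 for D, 0.31 for E, 0.37 for F, 0.14 for G and 0.04 for the pumps. It gave 3 higher and 3 lower ABC probes (6), ABCC1 at 1.01 among them, and 1025 higher and 781 lower of all probes. With dim signals at their bound, 498 of all probes were lower (1070 past 2-fold in all), subfamily A was at -0.2 and subfamily G at 0.14. With the highest-signal probe of each gene subfamily D was at -0.06, and with ABCF2-H2BK1 added subfamily F was at 0.14. Leaving out the spots of rows 1 to 144, an alternative chosen after seeing the data, left 1 higher ABC probe of 32 compared and 3 lower, against 358 higher (2.21%) and 549 lower (3.39%) of 16211 probes (907), with subfamily B at 0.31 and subfamily F at 0.33. ABCA7, ABCA10, ABCC8 and ABCF1 are among the members with no spot outside those rows. Signal over background limits 25 of the 64 ABC probes, for which no ratio is given.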

Other observations

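Symbols with further letters after the number were kept apart from the members. ABCA11P, a transcribed pseudogene, gave 102 after #1 siHOTAIR and 93.3 after siGFP (log2 ratio 0.08, measurement SD 0.28). The probe whose accession now leads to the read-through ABCF2-H2BK1 gave 3216 against 2924 (log2 ratio 0.09, measurement SD 0.06). ABCA15P, ABCA17P and ABCC6P1 were not well above background on either array.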
